A study of Homo sapiens with 9 samples.

Results

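The 9 genes described here are LPAR4, TAAR5, RORA, ZBTB20, ADAT1, ARSA, SH3KBP1, KIAA0825 and LOC101927284, out of 26625 genes measured. They were chosen by their read counts in HEK293T: they had many reads with oligo(dT) reverse-transcription primers that end in a plain run of T and few reads with primers that carry an anchor after the T run. Their difference between those primer classes is therefore how they were chosen, and it is given below as a description without a test. The series tested these primers in a ligation-based library protocol called CLT-seq on total RNA from wild-type cultured cells. HEK293T, a transformed human embryonic kidney line, was primed with T12, T18 or T30 (unanchored) and with T18V, T18VN or T18VNN (anchored), with 1 library for each primer. A549, a human lung carcinoma epithelial line, was primed with T12 in 1 library that took no part in choosing the genes. Of the T12 libraries used, that of A549 is biological replicate 2 and that of HEK293T is biological replicate 1. The other 2 of the 9 libraries, a second T12 library of each line, had no gene counts at hand and were not used here. No treatment or gene alteration is given for either line.

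Library totals were 7491993 to 25578543 reads, of which 1498224 to 5200705 fell on genes. Reads on genes made up 11.7% to 20.3% of the unanchored HEK293T libraries, 27.7% to 37.5% of the anchored ones and 13.5% of the A549 library. Levels are given as CPM, the reads of a gene per 1000000 reads on genes. A level of 3 reads, taken as the detection floor, was 0.577 CPM in the deepest library and 2 CPM in A549. The floor covers only counting error, because the libraries had no molecular identifiers and PCR copies of 1 molecule count separately. The line labels were set beside marker genes. The 5 HEK293T markers (NEFM, NEFL, AMOT, LIN28B and TUBB2B) were all lower in A549 than in every HEK293T library. The 6 A549 markers (TGFBI, ALDH1A1, AKR1B10, AKR1C1, KRT7 and S100A6) were all higher. These markers were chosen with earlier results of these data known, so they are no independent check of the labels. With 1 library per primer, each mean ± SD below is taken over the 3 primers of a class and measures the spread between primers, not between cultures. The labels give no batch, so a batch difference between the primer classes cannot be told apart from the anchor.

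An oligo(dT) primer starts cDNA synthesis where its T run pairs with a run of A. That can be the poly(A) tail at the 3′ end of a transcript, and it can also be an A-rich stretch inside the transcript, which is known as internal priming. An anchor is a base other than T directly after the T run (V, which stands for A, C or G), with or without further free bases (N, any base), and it favours pairing at the junction between the transcript body and its tail. The unanchored primers are printed 5′ to 3′ because the 3′ ends of the primers are the only difference between the HEK293T libraries that the labels give; capitals mark the T run. T18V, T18VN and T18VNN add V, VN and VNN to the 3′ end of the T18 sequence. The series' design text heads the sequence of the T18VN primer with another name, but its T run has 18 bases, as in T18V and T18VNN.
T12: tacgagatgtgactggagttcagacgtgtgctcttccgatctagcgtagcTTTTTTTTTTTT
T18: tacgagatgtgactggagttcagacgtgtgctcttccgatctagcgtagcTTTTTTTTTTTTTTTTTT
T30: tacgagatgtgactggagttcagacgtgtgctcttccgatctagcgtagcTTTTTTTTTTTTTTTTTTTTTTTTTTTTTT

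Runs of A or T were searched in the members' own transcripts, since these are the stretches with which a T run, or its complement in the cDNA, can pair. Transcript sequences (GENCODE release 29, GRCh38) were found for 8 of the 9 genes. Windows of at most 30 bases around the longest runs of LPAR4, RORA, ZBTB20 and SH3KBP1 are printed here as mRNA-sense DNA, 5′ to 3′, with the run in capitals; a long run goes on past the end of its window.
LPAR4, A run in exon 1 (5′ UTR): acctttccctgtAAAAAAAAAAAAAAAAAA
RORA, T run in exon 1 (5′ UTR): TTTTTTTTTTTTTTTTggtaccatagagtt
ZBTB20, A run in exon 10 (3′ UTR): gagagAAAAAAAAAAAAAAAAAAAAAAAAA
ZBTB20, T run in exon 10 (3′ UTR): tgTTTTTTTTTTTTTTTTTTTTTTTTTTTT
SH3KBP1, first A run in exon 18 (3′ UTR): aaattaaaaattAAAAAAAAAAAAtctgcc
SH3KBP1, second A run in exon 18 (3′ UTR): gtatcacttttgAAAAAAAAAAAAAttatt

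The LPAR4 run has 31 A, from position 169 to 199 of a transcript of 2611 bases, in the first of its 2 exons. In the ZBTB20 transcript matched to NM_015642.5, which has 27125 bases and the same 3′ end as the entry kept, the A run of 25 and the T run of 28 both lie in the last exon, at positions 9543 to 9567 and 11889 to 11916. The RORA transcript begins with 16 T; this end lies 17 bases upstream of the RefSeq start of the gene, and the GENCODE transcript is 16 bases longer than the deposited mRNA size, so the run may lie just outside the deposited mRNA. SH3KBP1 holds A runs of 12 and 13. A run of 12 or more A or T was thus present in 4 of 8 members (LPAR4, RORA, ZBTB20 and SH3KBP1), against 42.8% of 10380 tested genes with a sequence. Runs of 16 or more were in 3 of 8 members, against 24.8% of those genes. Runs of 25 or more A, a length chosen after the members' runs were seen, were in 2 of 8 (LPAR4 and ZBTB20), against 2.28%. No run of 12 was found in TAAR5, ADAT1, ARSA or KIAA0825, but the transcripts at hand cover 88.4%, 47.7%, 47.5% and 79.4% of their deposited mRNA sizes, so their full mRNAs were not searched. These matches describe the sequences, and where the reads of a library start was not measured here.

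The 2 receptors come first. LPAR4, a G protein-coupled receptor for lysophosphatidic acid, lies at chrX:78003206-78012588 on the plus strand (hg19, as for all positions below). It stood at 242, 172 and 1588 CPM with T12, T18 and T30, at 3.56, 5.13 and 1.11 CPM with T18V, T18VN and T18VNN, and at 104 CPM in A549. The unanchored levels had a mean of 667 ± 798 CPM (SD, n = 3 primers), against 3.27 ± 2.03 CPM (n = 3) for the anchored ones, and the groups did not overlap. The anchored libraries held only 10, 23 and 4 of its reads, against 790, 893 and 3519. By ratio, LPAR4 had the widest spread among unanchored primers: its T30 level was 9.25 times its T18 level and 6.56 times its T12 level.

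TAAR5 is a trace amine-associated receptor, known for sensing volatile amines in the olfactory epithelium, and has 1 transcript at chr6:132909731-132910877 on the minus strand. Its levels were 351, 237 and 951 CPM with the unanchored primers in the order T12, T18 and T30. With T18V, T18VN and T18VNN it stood at 34.2, 24.3 and 19.2 CPM, and A549 held 248 CPM. The groups did not overlap, and at 6.95 the ratio of its lowest unanchored to its highest anchored level was the smallest among the 9 genes. Its 5 relatives TAAR1, TAAR2, TAAR6, TAAR8 and TAAR9 had 0 reads in every library, so TAAR5 was the only one of these genes with reads.

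Next are the 2 transcription regulators. RORA, a nuclear receptor of the retinoid-related orphan class, spans chr15:60780483-61521502 on the minus strand. It had 2259.8, 1296 and 5662 CPM with T12, T18 and T30, and 19.6, 61.8 and 31.7 CPM with T18V, T18VN and T18VNN. The A549 level of 4619 CPM lay between those of T12 and T30 in HEK293T. ZBTB20, a zinc finger repressor with a BTB domain, lies at chr3:114033347-114790261 on the minus strand for the transcript kept. It had 610.3, 406 and 2014 CPM with the unanchored primers, 5.69, 16.7 and 11.1 CPM with the anchored ones in the same order, and 1310.2 CPM in A549. For both genes the primer classes did not overlap, T30 was the highest library, T18V was the lowest, and A549 sat inside the unanchored range.

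The 2 enzymes differed from each other in A549. ADAT1, the deaminase that converts an adenosine of a tRNA anticodon loop to inosine, lies at chr16:75630777-75657221 on the minus strand. Its unanchored levels were the closest together of the 9 genes, at 1118, 839 and 1297 CPM (mean 1085 ± 231, SD, n = 3). The anchored levels were 60.8, 35 and 59.2 CPM (mean 51.7 ± 14.5, n = 3), and A549 had 41.4 CPM, within the anchored range. ARSA, the lysosomal arylsulfatase A that is deficient in metachromatic leukodystrophy, lies at chr22:51061182-51066601 on the minus strand. It had 1393, 918 and 2369 CPM with the unanchored primers and 39.8, 67.8 and 29.2 CPM with the anchored ones. In A549 it had 1404 CPM, within the unanchored range. Neither gene's primer classes overlapped.

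SH3KBP1 encodes CIN85, an adaptor protein that links receptor ubiquitination to endocytosis, at chrX:19552083-19905744 on the minus strand. It was the member with most reads in every library: 12758, 16497 and 16809 with T12, T18 and T30, 978, 1961 and 741 with T18V, T18VN and T18VNN, and 11177 in A549. These are 3907, 3172 and 7585 CPM, then 348, 438 and 206 CPM, and 7460.2 CPM. Its classes did not overlap, but its anchored values rest on the largest counts of the 9 genes. Per length it was also the highest of the 9 with T12, at 141 FPKM (reads scaled to the library total and to mRNA size), against 55.7 for ARSA and 1.15 for KIAA0825, the lowest.

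KIAA0825, a gene of little-known function, spans chr5:93486556-93954309 on the minus strand and had the fewest reads. It had 157, 164 and 467 reads with the unanchored primers, 0, 4 and 5 with the anchored ones and 34 in A549. In CPM these were 48.1, 31.5 and 211, then 0, 0.893 and 1.39, and 22.7. The 0 in T18V allows a level of up to 1.07 CPM. LOC101927284, a long noncoding RNA gene at chr13:95413195-95587664 on the plus strand, had 313, 209 and 1416 CPM with the unanchored primers, 2.49, 3.35 and 0.834 CPM with the anchored ones, and 281 CPM in A549. Its anchored libraries held 7, 15 and 3 reads, the last at the floor. The classes of both genes did not overlap.

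**Figure D1:**
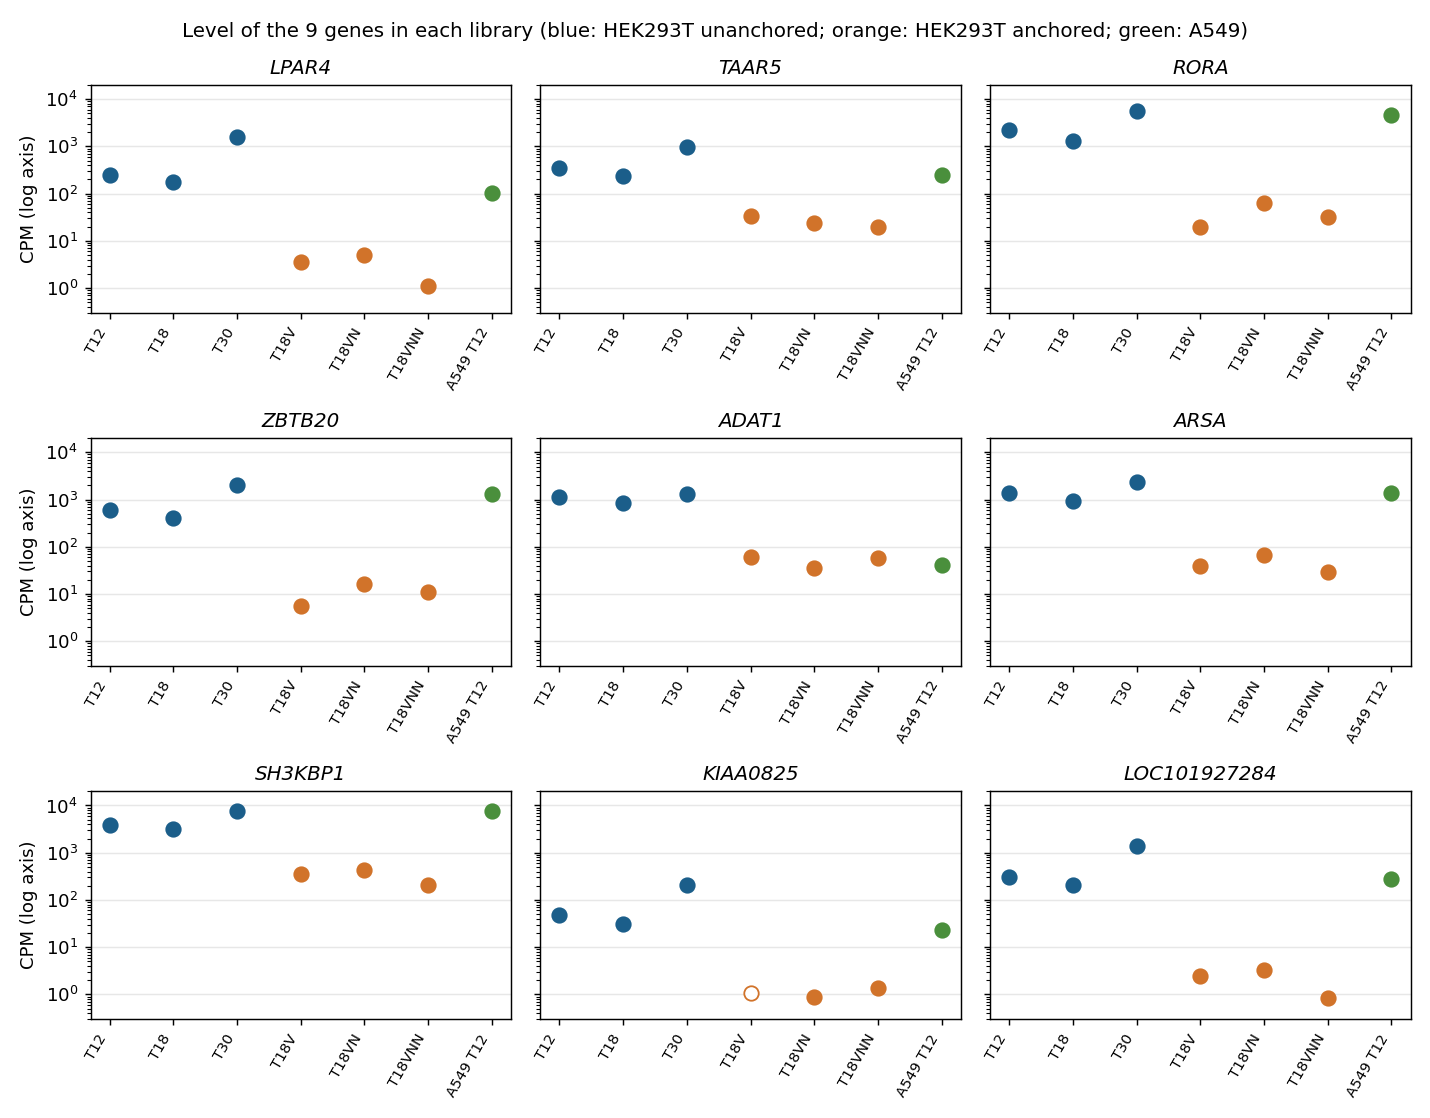
Level of each of the 9 genes in each library, in CPM on a log axis, with 1 point per library: HEK293T unanchored in blue, HEK293T anchored in orange and A549 in green. The open point for KIAA0825 marks 0 reads, drawn at the floor of 1.07 CPM; in every panel the blue points lie above the orange ones, and the green point lies within the range of the orange ones only for ADAT1.

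In the plot of levels by library, all 9 of 9 genes had their 3 anchored libraries below their 3 unanchored ones, as 6.8% of 10887 tested genes did. All 9 also passed an adjusted p of 0.05 in edgeR's quasi-likelihood fit over all genes, which called 1.35% of genes in either direction and 0.569% (62 genes) lower with anchored primers. Since this contrast chose the genes, nothing is read from these counts. Scaled to library totals in place of reads on genes, the fit called 51 genes lower and 2206 higher, against 62 and 85 in the main scaling, and the median log2 fold change of all genes moved from 0.00 to 1.08. The members' log2 fold changes, anchored minus unanchored, ran from -8.34 for LOC101927284 to -4.07 for SH3KBP1, with a median of -6.54. Together the members took 1.02%, 0.728% and 2.31% of the gene reads of T12, T18 and T30 and 0.0514%, 0.0653% and 0.036% of those of T18V, T18VN and T18VNN. In A549 they took 1.55%.

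The genes were also ranked by a single number, the lowest unanchored CPM over the highest anchored CPM, with levels taken as at least 3 reads. These levels chose the members, so their ranks are a description and nothing is read from them. A lowest level over a highest one lies below 1 for a gene with no difference between the classes. Of 6826 genes with at least 20 reads in each unanchored library, LOC101927284 ranked 1 with a ratio of 62.3 and LPAR4 ranked 2 with 33.5. ZBTB20 (24.3), KIAA0825 (22.7), RORA (21), ADAT1 (13.8) and ARSA (13.5) took ranks 4 to 8. SH3KBP1 (7.25) and TAAR5 (6.95) ranked 14 and 15, while the median ratio of the ranked genes was 0.531. BIRC3, an inhibitor of apoptosis (12.1), LDB1, a cofactor of LIM-domain proteins (10.8), KCNJ3, a potassium channel subunit (8.17), DPP6, an auxiliary subunit of potassium channels (8.03), and the transcription factor USF1 (7.99) ranked between ARSA and SH3KBP1. The zinc finger genes ZNF302 (6.83) and ZNF268 (6.34), with ATPSCKMT (6.68) and SLITRK4 (6.17), followed TAAR5.

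**Figure D2:**
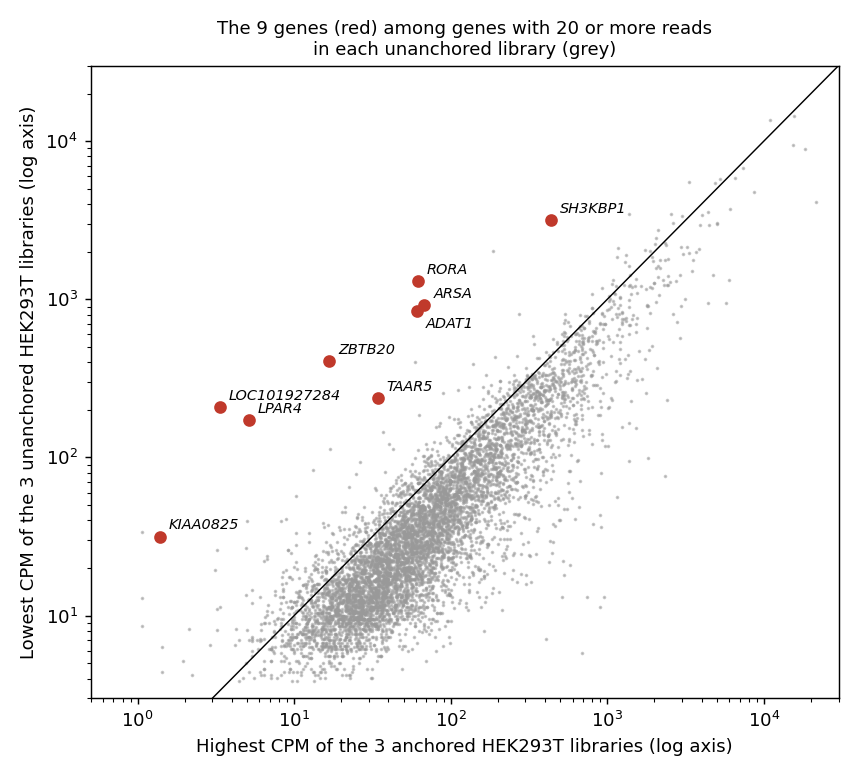
Lowest unanchored against highest anchored HEK293T level, both in CPM on log axes, for 6826 genes with at least 20 reads in each unanchored library (grey) and the 9 members (red). The line marks equal levels, and levels under 3 reads are drawn at 3 reads. The members, which were chosen by these levels, lie 6.95 to 62.3 times above the line.

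In the plot of lowest against highest levels the members run from KIAA0825 at 31.5 CPM to SH3KBP1 at 3172 CPM on the vertical axis. Their distance above the line was not ordered by level: LOC101927284 and LPAR4, far below SH3KBP1 in CPM, had ratios of 62.3 and 33.5 against 7.25.

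The A549 library asks whether the members were also well covered by an unanchored primer in cells that did not choose them. Of the 9 members, 8 had an A549 level at least 2 times the highest of the 3 anchored HEK293T levels, as 19.1% of 11669 genes did. The ratios of those 8 ran from 7.25 for TAAR5 to 83.9 for LOC101927284, with 78.3 for ZBTB20 and 74.7 for RORA. ADAT1 was the exception at 0.68. The median over the 9 genes was 20.3, against 0.645 over all genes counted. A level over the highest of 3 others tends to lie below 1 for a gene that does not differ. The 0.645 alone thus does not show lower levels in A549. Low anchored levels enter both the choice of the genes and this ratio. Among the 689 counted genes whose anchored libraries all lay below the unanchored ones, 31.1% passed the same threshold, and among 60 counted genes called lower by edgeR 61.7% did. The 9 like-ranked genes named above all passed it, from 4.41 for ZNF268 to 470.3 for BIRC3. No test was possible with 1 A549 library, and cell line and primer cannot be told apart in this comparison.

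**Figure D3:**
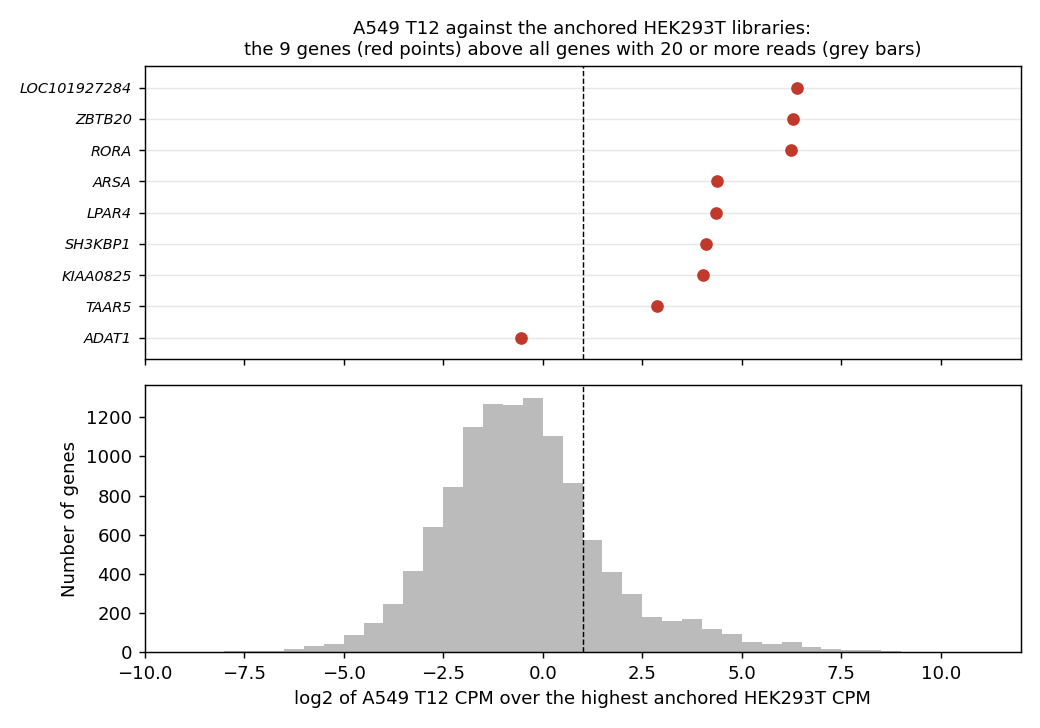
Upper panel, the log2 ratio of the A549 T12 level to the highest anchored HEK293T level for each of the 9 genes (red points); lower panel, the number of genes at each value of the same ratio among 11669 genes with at least 20 reads (grey bars). The dashed line marks a 2-fold higher level in A549; the points of 8 genes lie to its right and that of ADAT1 to its left.

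The plot of A549 against anchored libraries places the 8 genes in the right tail of the distribution and ADAT1 near its centre. Set against HEK293T with the same T12 primer, a library that helped to choose them, the members had a median log2 ratio of -0.15, and all 10145 genes counted had one of 0.02. These medians were -0.52 and 0.02 with the longest mRNA of each gene, -0.43 and -0.24 with TMM scaling, and -0.50 and -0.26 with scaling to the library total. No test was made, with 1 library of each line. RORA and ZBTB20 were at least 2-fold higher in A549 (2.04 and 2.15 times), as 31% of genes were. LPAR4, KIAA0825 and ADAT1 were at least 2-fold lower, as 29.2% of genes were: HEK293T T12 had 2.32, 2.12 and 27 times their A549 levels. The ADAT1 difference is 3651 against 62 reads. SH3KBP1 (1.91 times), ARSA (1.01), LOC101927284 (0.898) and TAAR5 (0.706) stayed within 2-fold. RORA and ZBTB20 sat at the edge of the threshold: 0 members were 2-fold higher with TMM scaling or with scaling to the library total. These are bulk libraries, so fewer cells that express a gene and less RNA per cell cannot be told apart.

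The levels with T12, T18 and T30 chose the genes, so their order is given as a description, and nothing is read from its counts against those over all genes. All 9 members had the order T30 over T12 over T18, which 12.7% of 10759 genes had. T30 was at least 2-fold above both T12 and T18 in 6 of 9 members (LPAR4, TAAR5, RORA, ZBTB20, KIAA0825 and LOC101927284), as in 5.66% of genes. The T30 level over the T12 level ran from 1.16 for ADAT1 to 6.56 for LPAR4, with a median of 2.71 against 0.946 over all genes, and T30 over T18 had a median of 4.37 against 0.947. T12 exceeded T18 by less, from 1.23 times in SH3KBP1 to 1.74 times in RORA. Among the genes with all anchored levels below all unanchored ones, 28% had the same order and 7.07% had T30 at least 2-fold above both; among genes called lower by edgeR these shares were 61.3% and 27.4%. T30 was also the library with the smallest share of its reads on genes, 11.7%, and the part of that share in the order was not tested; scaled to library totals, 8 of 9 members kept the order and 4 kept the 2-fold lead.

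Among the anchored primers, whose low values also chose the genes, none was the highest for every member in CPM. T18VN was highest for LPAR4, RORA, ZBTB20, ARSA, SH3KBP1 and LOC101927284, T18V for TAAR5 and ADAT1, and T18VNN for KIAA0825. The order rests on few reads for LOC101927284 (7, 15 and 3 with T18V, T18VN and T18VNN) and KIAA0825 (0, 4 and 5). Scaled to the library total, SH3KBP1 was highest with T18V as well (131 FPM, against 123 with T18VN). The highest anchored CPM exceeded the lowest by 1.74 times in ADAT1 to 4.62 times in LPAR4, whose counts were 23 and 4 reads, and no fold is given for KIAA0825, which had 0 reads with T18V.

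The deposited counts are per transcript, and 7 of the 9 genes have more than 1 transcript entry. In LPAR4 (2 entries), ZBTB20 (8), ADAT1 (10) and ARSA (5), the entries of a gene carried the same reads, with the lowest entry at 99.96%, 100%, 99.97% and 100% of the highest over the 7 libraries. RORA and SH3KBP1 split by transcript. In RORA, nearly all reads lay on NM_134261.2, the entry with the farthest upstream start: it had 7380, 6741 and 12547 reads with T12, T18 and T30, while the other 3 entries shared 12, 8 and 0. In SH3KBP1, NM_031892.2 had 12758, 16497 and 16809 reads, and the other 2 entries shared 194, 488 and 171.

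The reads outside the shared entries make up nearly all of the unanchored reads by which these 2 genes were chosen. Their difference between primer classes is therefore given as a description. Outside the shared entries RORA had 3071 ± 2295 CPM unanchored and 32.3 ± 21.4 CPM anchored (SD, n = 3 primers each). On the shared entries it had 1.74 ± 1.84 and 5.35 ± 4.17 CPM. SH3KBP1 had 4811 ± 2367 and 252 ± 118 CPM outside the shared entries, and on them 76.8 ± 17.2 and 78 ± 43.3 CPM. The shared reads of both genes thus overlapped between the classes. Those of RORA were only 0 to 35 per library, too few to show whether the classes differ. Anchored levels on the shared SH3KBP1 entries were 128, 53.8 and 52.3 CPM, beside 59.4, 93.8 and 77.2 CPM unanchored. In A549 the same split held: 6919 of 6921 RORA reads (99.97%) and 10928 of 11177 SH3KBP1 reads (97.8%) lay outside the shared entries.

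**Figure D4:**
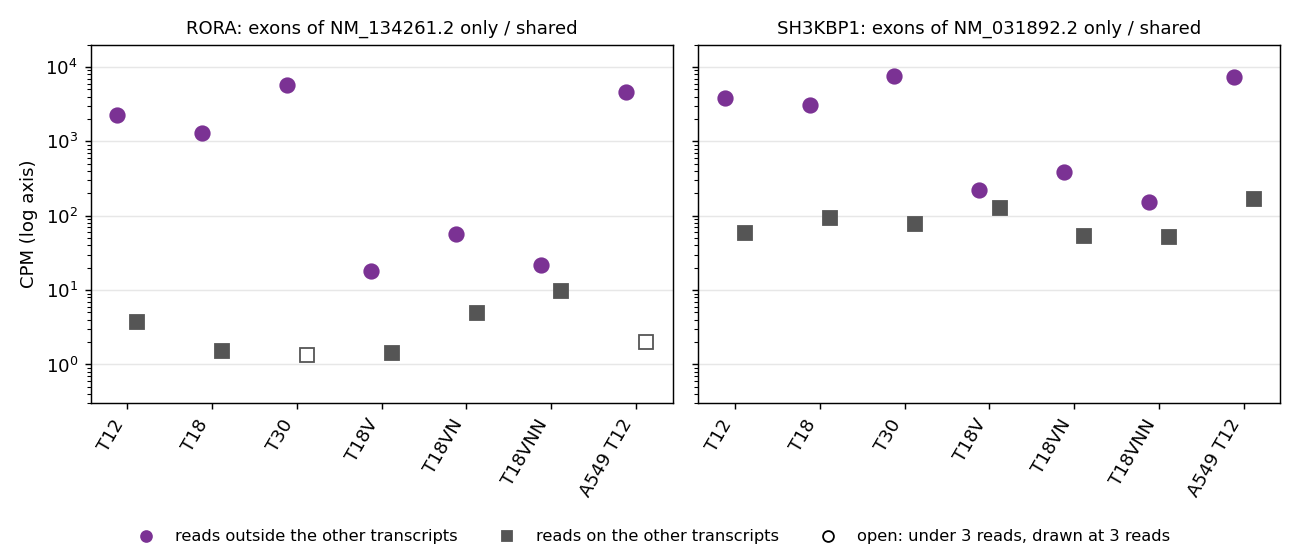
RORA (left) and SH3KBP1 (right) in each library, in CPM on a log axis: purple circles are reads of the main transcript that lie outside all other transcripts of the gene, grey squares are reads on those other transcripts, and open symbols are levels under 3 reads, drawn at 3 reads. The circles fall from the unanchored to the anchored libraries, from a mean of 3071 to 32.3 CPM in RORA, while the squares of the classes overlap.

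The plot of reads by transcript shows that 2 of the members' levels belong to a small part of the gene. By the GENCODE exons, the sequence that only the main RORA transcript has is exons 1 and 2 of 11, which are 297 bases. For SH3KBP1 it is exons 1 and 2 of 18, which are 453 bases; the deposited mRNA is 35 bases longer than the GENCODE transcript, and those bases could not be placed. The T run of RORA printed above lies at the upstream end of its part by the GENCODE exons, and may lie outside the deposited mRNA. RORA also holds T runs of 12 and 13 in exon 11, outside that part. The A runs of SH3KBP1 lie in exon 18, outside its part. KIAA0825 was similar in form but not in size: its short entry NM_173665.2 had 0 reads in every HEK293T library and 3 in A549, so its HEK293T reads lay in exons 5 to 20 of its long transcript, or in deposited sequence that the GENCODE transcript lacks. Among 2343 genes with several entries and at least 1000 reads, 237 (10.1%) had an entry under 5% of the highest, as 2 of 6 such members did (RORA at 0.244% and SH3KBP1 at 3.11%). With the longest mRNA kept for each gene, RORA is represented by an entry without exons 1 and 2, and its log2 fold change, anchored minus unanchored, turned from -6.54 to 1.42. That entry had 12, 8 and 0 reads with T12, T18 and T30 and 4, 22 and 35 with T18V, T18VN and T18VNN. The 1.42 thus rests on few reads, some of them near or under the floor.

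Genes that overlap a member could share its reads, since no use of strand is stated for the counts. Only RORA and ZBTB20 overlap other genes. RORA-AS1 had at most 4 reads in a library (T18VNN) and RORA-AS2 had 0. Of the 6 genes that overlap ZBTB20, MIR568 had 6 reads and ZBTB20-AS5 had 1, both in A549, and MIR4796, ZBTB20-AS1, ZBTB20-AS3 and ZBTB20-AS4 had 0. The other 7 members overlapped no other gene. Antisense reads over a member's own exons would still be counted for it. The members spanned a median of 174470 bp in the genome, against 27217 bp over the 10887 tested genes, and their median mRNA size was 4766 bases against 3228.

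The profiles of the members over the 7 libraries, 6 of which were used to choose them, were compared by the correlation of log2(CPM + 1), as a description of libraries that share depth and cells. RORA and ZBTB20 had the closest profiles (Pearson's r = 0.999). Pairs without ADAT1 had r from 0.919 to 0.999, and pairs with ADAT1 had r from 0.617 (with SH3KBP1) to 0.813 (with KIAA0825). Among 9437 other genes, the profile most like those of LPAR4 (r = 0.986), TAAR5 (0.992) and KIAA0825 (0.977) was that of ZNF268. MSX1, a homeobox gene, was closest to RORA and ZBTB20 (0.993 each), ZNF302 to ARSA (0.989) and LOC101927284 (0.987), LDB1 to SH3KBP1 (0.987) and BOP1, a ribosome biogenesis factor, to ADAT1 (0.972).

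Relatives of the members by family or pathway were also read, to see whether the primer classes differed for more of each family. The list had 60 genes, and 38 were tested. None was called in either direction by edgeR (Benjamini-Hochberg adjusted p under 0.05), as 1.35% of 10887 tested genes were. With so small a share over all genes, nothing is read about the families from the absence of calls. An unadjusted p under 0.05 was found for 3 relatives, and its share over all genes was not counted. DESeq2 called 1 (CD2AP), and edgeR called 1 (CD2AP) with the T12 library left out. The median log2 fold change of the 38 was -0.04, against 0.00 for all genes. The 3 genes, named after their values were seen, were CD2AP, a homologue of SH3KBP1 (log2 fold change 2.30 ± 0.57 SE, edgeR adjusted p = 0.0705), the ubiquitin ligase CBL, a partner of SH3KBP1 (-1.40 ± 0.57, adjusted p = 0.266), and the lysosomal sulfatase IDS (0.81 ± 0.33, adjusted p = 0.27). ARSG, a sulfatase related to ARSA, had too few reads to be tested: it had 5.82, 2.31 and 3.16 CPM unanchored and 0 CPM with each anchored primer, and it was the only listed relative with reads whose anchored levels all lay below its unanchored ones. With no filter on low counts, CD2AP was the only relative called. ADAT2, the catalytic subunit of another tRNA deaminase, had 55.1, 47.3 and 38.4 CPM unanchored and 66.9, 39.3 and 49.5 CPM anchored, so its classes overlapped. A gap with all anchored levels below all unanchored ones was found in only 6.8% of 10887 tested genes. Gaps in the other direction were not counted. ADAT1 was chosen for such a gap, so nothing is read from setting the 2 genes side by side. LPAR6 had reads only in A549 (39.4 CPM). LPAR3 had 16.8, 5.19 and 3.16 CPM unanchored and 1.42, 7.36 and 5 CPM anchored, so its classes also overlapped.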

How the data were processed

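The authors deposited 1 table per library with whole-read counts for each RefSeq transcript; the same deposited tables give FPM, a signal scaled to the library total, and FPKM, scaled to total and mRNA size as well. Per the submitters' processing notes, FastQC 0.11.8, cutadapt 2.10, Trimmomatic 0.39, HISAT2 2.2.1 and SAMtools were used with build hg19; strand use and the treatment of multiply mapped reads are not given in the sources used here. Counts were used for all tests and CPM; the library total was recovered as count over FPM, and the deposited FPKM only to compare genes. Gene body coverage and poly(T) files hold no value per gene and were not used.

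Accessions were matched to symbols with the RefSeq gene table (60133 of 61177 entries), and the entry with most reads was kept for each gene. The anchored contrast was fitted with edgeR 4.0.16 in R 4.3.3 (filterByExpr, TMM, quasi-likelihood test, Benjamini-Hochberg), after a test on simulated data, with DESeq2 1.42.0 as an alternative; the others were scalings, low-count filters, the longest mRNA, thresholds, a pseudocount of 0.1 and leaving out each library. The biological coefficient of variation between primers was 0.484. Thresholds in comparisons with 1 library were 2-fold, over genes whose higher library had 20 or more reads, and, for A549 against HEK293T T12, log2(CPM + 1). The primers were read from the series' design text.

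Named genes were the 9 members with their entries and overlaps, the 10 other genes with the highest ratio of lowest unanchored to highest anchored CPM, the gene most correlated with each member among genes with at least 50 reads, and relatives called in the fit. As none was called, the relatives given with values were picked after their values were seen. Of the 10, 1 is not reported here. The members and lists were chosen with earlier results of these data known.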

Additional observations from a re-analysis of the deposited data

How the results depend on the processing

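The members' log2 fold changes, anchored minus unanchored, gave 99 values under 11 alternatives. Of these, 94 moved by no more than the spread. That spread is a member's SD of log2(CPM + 1) between primers, with the variances of both classes added. All 9 members shrank with library totals and no TMM, LPAR4 from -7.85 to -6.41 among them. Only 4 shrank by more than their spread (TAAR5 to -3.15, ADAT1 to -3.39, ARSA to -4.06, SH3KBP1 to -2.83). Without T30, LPAR4 moved to -6.10, KIAA0825 from -7.03 to -5.73 and LOC101927284 from -8.34 to -6.99, all within their spread. RORA reversed to 1.42 with the longest mRNA, an entry with only 0 to 35 reads per HEK293T library. All 9 members stayed past the threshold on adjusted p, with edgeR or DESeq2, in every alternative but the longest mRNA, where 8 did. The alternatives reuse the libraries whose primer contrast chose the members, so nothing is read from these counts of members. The number of genes called in the primer contrast, 147, was 597 with DESeq2, 2257 with library totals and 556 without a filter; the number lower, 62, was 315 with DESeq2 and 273 without a filter. DESeq2 gave no adjusted p for 2346 genes. Leaving out 1 library gave 46 to 111 calls (46 without T18VNN, 54 without T30, 63 without T18V, 85 without T18) and 27 to 66 lower ones (27 without T18VNN, 29 without T18V, 35 without T30), with fewer samples in the fit. Relatives called were 1 with DESeq2 (CD2AP, higher), 6 with library totals, 1 without a filter and 0 to 1 on leaving out a library (1, CD2AP, without T12). For A549 against HEK293T T12, the 4-fold threshold left 3344 of 6104 genes, and 0 higher and 1 lower member; members higher were 0 with library totals, 0 with TMM and 1 with the longest mRNA, in place of 2. Genes with A549 above the anchored libraries, 2230, were 1112 with library totals and 1247 at 4-fold; the 8 members numbered 7 with the longest mRNA and 8 in the other alternatives. Genes led by T30, 609, were 221 with library totals, 1136 without a minimum and 166 at 4-fold, where 3 members in place of 6 passed. For changes not explained by a stricter threshold, fewer genes or fewer samples, the cause was not tested. No paired analysis was possible because only the T12 libraries carry replicate numbers, so the classes compared share fewer than 2.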
